A study of Homo sapiens with 3 samples.

Results

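Of the homologous recombination and Fanconi genes examined here, 33 of the 37 that could be measured exceeded background on all 3 arrays of unstressed HEK-293T cells (89.2%), against 49.0% of all 19775 genes measured. The 4 that did not were RAD51B, XRCC3, FANCF and SLX4. Of these, all but FANCF were called when 2 of 3 arrays were enough, as were 52.4% of all genes. A stricter threshold was the 99th percentile of the background reference in place of the 95th. With it, 21 of the 37 were called against 28.5% of all genes. DMC1, a recombinase known from meiosis, was above background but not at the stricter threshold, while 24 of 25 other genes of meiotic recombination and synapsis were not. None of the genes passed the test between cultures harvested 48 h and 24 h after seeding.

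Homologous recombination repairs broken DNA by copying an intact sister sequence. Broken ends are trimmed, the exposed strand is coated with a recombinase of the RecA family, and that filament invades the matching duplex. The Fanconi pathway removes crosslinks that tie the strands of DNA together, and it hands the resulting breaks to recombination. Both are most active in cells that replicate their DNA, and the checkpoint kinases ATM and ATR start the signaling.

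The genes were taken from a list of 41 genes of these pathways. A probe set is the group of probes on the array that reads 1 transcript region, and those whose platform gene symbols include a listed gene numbered 89 of 54675. Of these, 87 are listed for 1 gene and 2 for both RAD54B and FSBP. BRCA2, RBBP8, FANCA and FANCD2 have no probe set listed under their symbol in the annotation used, and their signals were not analysed here. They entered only the search of promoter sequences.

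RNA came from 3 cultures of HEK-293T, a transformed human embryonic kidney line into which a temperature-sensitive gene for the SV40 T antigen had been inserted. All were grown in DMEM with fetal bovine serum and received no treatment. The low-seeded 48 h culture started from 375000 cells and the high-seeded 48 h culture from 750000, and the 24 h culture started from 1000000. Seeding differs along with harvest time, and their parts cannot be told apart. The RNA integrity numbers were 9.6 and 10.0 in the 48 h cultures and 9.5 in the 24 h culture. Each RNA was hybridized to 1 Affymetrix U133 Plus 2.0 array, and values are MAS5 signals, an intensity on a linear scale. The 48 h cultures are given below in the order low-seeded, high-seeded.

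A probe set was called above background when its signal exceeded, on each of the 3 arrays, the 95th percentile of a background reference. The reference was 444 probe sets of 299 genes, odorant and taste receptors and other genes known from tissues unlike this line. These thresholds were 129.3 and 141.0 in the 48 h cultures and 122.1 in the 24 h culture. A gene was counted when at least 1 probe set listed for it alone was above background. Of the reference probe sets themselves, 15 were called. With 3 arrays, precision is limited throughout. Probes differ in how well they bind, so a brighter probe set does not mean more transcript than a dimmer one, and only arrays were compared within a probe set. Markers of cell types were counted in the same way, beside 49.0% of all genes. Of 8 kidney progenitor markers 5 were above background (62.5%), and PAX2, LHX1 and OSR1 were not. This share lies near that of all genes, so it says little about the identity of the line. SIX2 was called on 2 of 2 probe sets, PAX8 on 1 of 8, GATA3 on 1 of 3, and EYA1 and WT1 on 1 of 2 each. Of 4 neurofilament genes 3 were called, all but NEFH. Of the mature kidney markers 0 of 12 were called. Among them LRP2 missed the threshold on the 24 h array alone, with 168.0 and 217.7 in the 48 h cultures and 110.8 in the 24 h culture. Of the blood and endothelial markers 0 of 7 were called. Of 6 fibroblast markers only COL1A1 was, with 1 of its 5 probe sets.

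**Figure D1:**
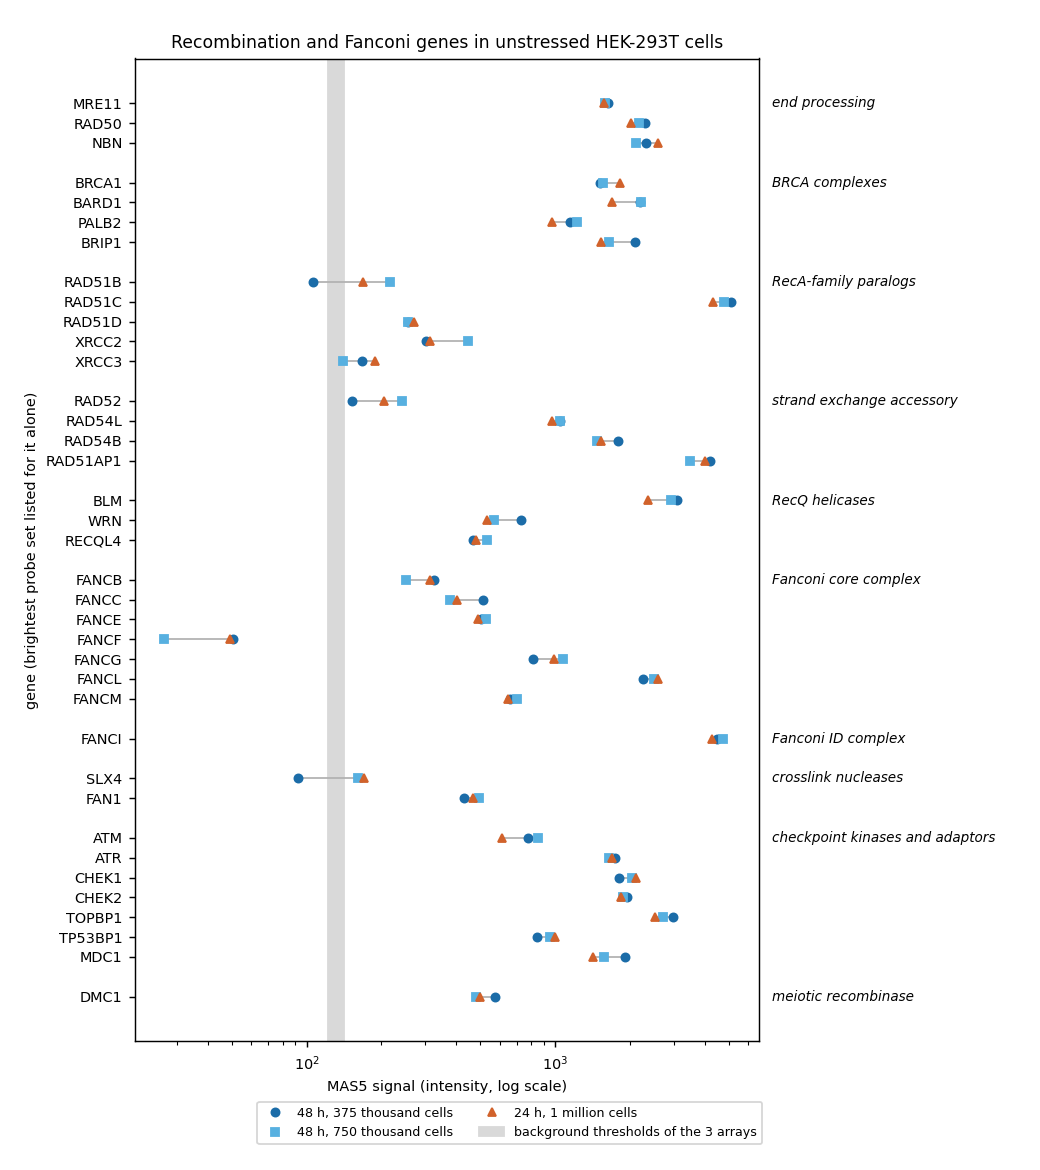
MAS5 signals (horizontal axis, intensity, log scale) of the brightest probe set of each of the 37 measured genes (vertical axis, grouped by role) in the 3 cultures. Symbols are single arrays, grey lines join them, and the band in grey covers the thresholds, 122.1 to 141.0; FANCF lies left of the band, and RAD51B and SLX4 cross it.

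The MRE11, RAD50 and NBN proteins form the complex that binds DNA ends first. Their 3 genes were all above background, against 49.0% of all genes. MRE11, the nuclease, gave signals of 1639 and 1588 in the 48 h cultures and 1574 in the 24 h culture on its brightest probe set, with the smallest relative spread of any listed probe set above background (coefficient of variation 2.11%). RAD50, the ATPase that tethers the ends, gave 2313 and 2184 in the 48 h cultures and 2025 in the 24 h culture, and its other 2 probe sets were above background too. NBN, which recruits ATM, gave 2335 and 2112 in the 48 h cultures and 2590 in the 24 h culture, and 4 of its 5 probe sets were called. The remaining probe set of NBN gave 3.69 and 20.7 in the 48 h cultures and 64.8 in the 24 h culture, and that of MRE11 stayed at 71.1 ± 18.3 (SD, n = 3 arrays).

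BRCA1, BARD1, PALB2 and BRIP1 were above background on each of their 8 probe sets, against 41.8% of all probe sets listed for 1 gene. BRCA1, a ubiquitin ligase that favors recombination over end joining, gave 1522 and 1565 in the 48 h cultures and 1824 in the 24 h culture. Its binding partner BARD1 gave 2194 and 2218 in the 48 h cultures and 1695 in the 24 h culture. PALB2, which bridges BRCA1 and BRCA2, gave 1146 and 1224 in the 48 h cultures and 975.6 in the 24 h culture. The helicase BRIP1, also named FANCJ, gave 2098 and 1644 in the 48 h cultures and 1525 in the 24 h culture. Over the 3 arrays the coefficient of variation was 10.0% for BRCA1, 14.5% for BARD1, 11.4% for PALB2 and 17.2% for BRIP1.

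The RecA-family paralogs assist the recombinase in building its filament, and 3 of the 5 genes and 4 of their 10 probe sets were above background, against 49.0% of all genes and 41.8% of all probe sets listed for 1 gene. RAD51C, a subunit of both paralog complexes, gave 5104 and 4773 in the 48 h cultures and 4310 in the 24 h culture, and its second probe set was above background as well (3409 ± 178, SD, n = 3 arrays). XRCC2 gave 303.5 and 444.8 in the 48 h cultures and 313.9 in the 24 h culture on its only probe set. RAD51D gave 256.6 and 256.3 in the 48 h cultures and 270.2 in the 24 h culture, and its other probe set was not above background (109.8 ± 36.3, SD, n = 3 arrays). XRCC3, the partner of RAD51C, was measured by 1 probe set at 166.9 and 140.1 in the 48 h cultures and 187.9 in the 24 h culture. It missed the call on the high-seeded 48 h array alone, where its signal was 0.994 times the threshold. RAD51B was not above background on any of its 4 probe sets, although the brightest exceeded the threshold on 2 arrays with 105.9 and 216.8 in the 48 h cultures and 168.5 in the 24 h culture. Without the low-seeded 48 h array RAD51B and SLX4 were called, which gives 35 genes, against 50.3% of all genes. Without the high-seeded 48 h array XRCC3 was called, which gives 34, against 50.5% of all genes.

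Among the genes that act with the filament, RAD51AP1, a stimulator of strand pairing, gave 4202 and 3503 in the 48 h cultures and 4026 in the 24 h culture. RAD54L, a DNA translocase, gave 1051 and 1049 in the 48 h cultures and 974.9 in the 24 h culture. Its relative RAD54B gave 1793 and 1476 in the 48 h cultures and 1528 in the 24 h culture. RAD52, which anneals complementary strands, was close to the threshold. Its brightest probe set gave 153.0 and 241.8 in the 48 h cultures and 204.8 in the 24 h culture, at least 1.18 times the threshold on every array, and the other 3 probe sets were not above background.

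The 3 listed RecQ helicases, which unwind recombination intermediates, were all above background, against 49.0% of all genes. BLM gave 3100 and 2924 in the 48 h cultures and 2362 in the 24 h culture. WRN gave 731.1 and 569.4 in the 48 h cultures and 532.4 in the 24 h culture. RECQL4 gave 466.8 and 530.4 in the 48 h cultures and 480.2 in the 24 h culture, and its second probe set was called too.

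The Fanconi core complex is a ubiquitin ligase that acts on FANCD2 and FANCI at crosslinks. Of its 7 measured genes 6 were above background, against 49.0% of all genes. FANCL, the subunit that carries the ligase activity, gave 2270 and 2507 in the 48 h cultures and 2588 in the 24 h culture. FANCG gave 816.7 and 1073 in the 48 h cultures and 988.6 in the 24 h culture. FANCM, the translocase that anchors the complex to DNA, gave 659.3 and 704.5 in the 48 h cultures and 646.7 in the 24 h culture, with 3 of 4 probe sets called. The remaining members with a call had brightest probe sets at 506.9 ± 21.1 for FANCE, 431.7 ± 71.7 for FANCC and 296.5 ± 39.9 for FANCB (SD, n = 3 arrays), with 1 of 1, 1 of 3 and 3 of 4 probe sets called. FANCF, an adaptor within the complex, was the furthest below the threshold of the 37 genes. It gave 50.6 and 26.6 in the 48 h cultures and 49.3 in the 24 h culture on one probe set, and 6.88 and 9.21 in the 48 h cultures and 5.50 in the 24 h culture on the other. None of these signals reached the threshold, so only an upper bound on its level can be given.

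FANCI, the measured partner of the pair that the core complex modifies, was above background on 3 of 3 probe sets, and the brightest gave 4509 and 4738 in the 48 h cultures and 4268 in the 24 h culture. Its probe sets had coefficients of variation between 2.51% and 5.22%. FAN1, a nuclease that cuts at crosslinks, gave 429.0 and 496.0 in the 48 h cultures and 466.3 in the 24 h culture, with 2 of 3 probe sets called. SLX4, a scaffold that holds several nucleases, gave 92.3 and 160.6 in the 48 h cultures and 170.8 in the 24 h culture and fell short on the low-seeded 48 h array alone, while its other probe set stayed at 47.3 ± 45.4 (SD, n = 3 arrays).

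The 7 checkpoint kinases and adaptors were all above background, against 49.0% of all genes. Of their probe sets 15 of 21 were called, against 41.8% of all probe sets listed for 1 gene. ATR, the kinase activated by exposed single strands, gave 1742 and 1652 in the 48 h cultures and 1700 in the 24 h culture. Its activator TOPBP1 gave 2978 and 2721 in the 48 h cultures and 2530 in the 24 h culture. CHEK1, the kinase downstream of ATR, gave 1809 and 2051 in the 48 h cultures and 2115 in the 24 h culture.

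ATM, the kinase activated by breaks, gave 777.4 and 855.8 in the 48 h cultures and 610.1 in the 24 h culture, and 3 of its 6 probe sets were called. CHEK2, the kinase downstream of ATM, gave 1948 and 1884 in the 48 h cultures and 1852 in the 24 h culture. The chromatin adaptor MDC1 gave 1917 and 1573 in the 48 h cultures and 1423 in the 24 h culture. TP53BP1, which shields ends from trimming, gave 846.1 and 952.9 in the 48 h cultures and 1003 in the 24 h culture, with 3 of 4 probe sets called.

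DMC1, the recombinase that acts in meiosis beside the general one, was above background on both probe sets in every culture. The brighter gave 575.5 and 480.0 in the 48 h cultures and 500.8 in the 24 h culture, and the other 264.4 and 331.7 in the 48 h cultures and 334.1 in the 24 h culture, at least 2.04 times the threshold. Both are of kinds (_s_at and _x_at) whose probes may also match transcripts of other genes, and DMC1 has no other probe set. The same limit holds for BRCA1, CHEK2, MDC1, RAD51C, XRCC2 and XRCC3, which were measured by these kinds alone. All called probe sets of NBN are of these kinds too. DMC1 was not called at the 99th percentile. Of 25 other measured genes of meiotic recombination and synapsis, MND1 alone was called. MND1, a partner of DMC1 in strand invasion that is also known from dividing somatic cells, gave 1520 and 1538 in the 48 h cultures and 1503 in the 24 h culture. REC8, the meiotic cohesin subunit, came next with 140.4 and 123.4 in the 48 h cultures and 162.7 in the 24 h culture, and missed the threshold on the high-seeded 48 h array alone.

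**Figure D2:**
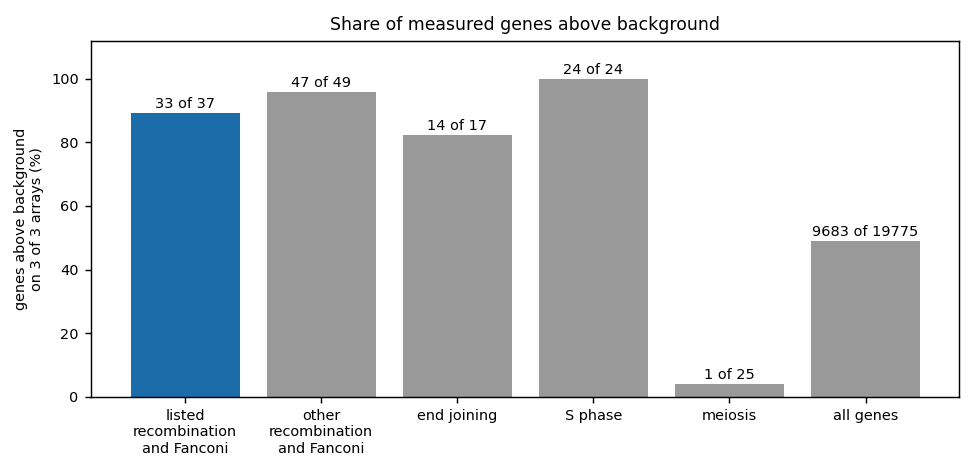
Share of measured genes above background on all 3 arrays (vertical axis, percent) in the listed recombination and Fanconi genes, in other genes of these pathways, in end joining, S phase and meiotic genes, and in all genes of the array. Counts stand above the bars; the listed genes reach 89.2%, the meiotic genes 4.0% and all genes 49.0%.

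Other genes of the same pathways were above background in 47 of 49 measured cases. The exceptions were POLN, a DNA polymerase, with 75.9 and 216.2 in the 48 h cultures and 143.0 in the 24 h culture, and XAB2, a splicing protein, with 30.1 and 145.2 in the 48 h cultures and 88.6 in the 24 h culture. Genes of end joining, the competing route that ligates ends without a template, were called in 14 of 17 cases, and all 24 S phase genes and all 25 G2 and M phase genes were. The end joining genes not called were the polymerases POLL and POLM and the histone chaperone APLF.

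The number of probe sets bears on these counts, since a gene needed only 1. Of the listed genes with 1 probe set, 12 of 13 were above background, against 32.3% of all genes with 1. With 2 probe sets it was 7 of 9 against 54.6%, with 3 it was 7 of 7 against 67.2%, and with 4 it was 5 of 6 against 75.2%. The genes with 5 and with 6 probe sets, NBN and ATM, were called, as were 77.8% and 76.8% of all such genes. Counted by probe set, 61 of 87 were called (70.1%), against 41.8% of all probe sets listed for 1 gene. No test was made of these shares, and the listed genes were chosen by pathway, not at random.

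**Figure D3:**
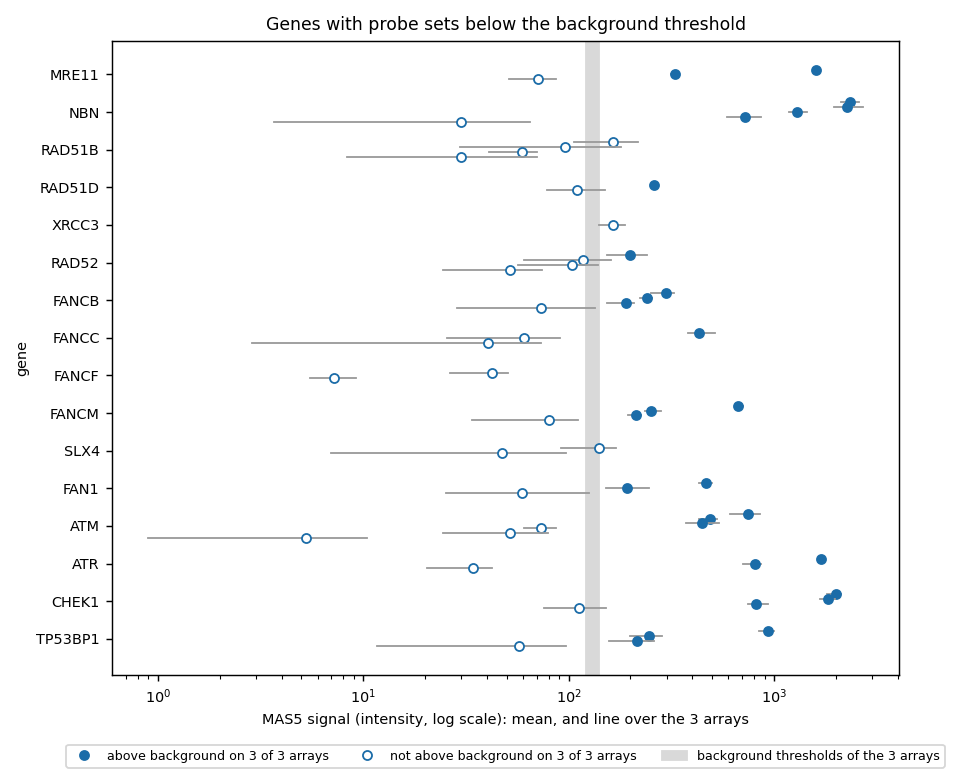
Every probe set of the 12 genes whose probe sets fell on both sides of the background threshold and of the 4 genes with none above it. The horizontal axis is the MAS5 signal (intensity, log scale); circles are means of 3 arrays, filled when above background, lines span the arrays and the grey band spans the thresholds. ATM has probe sets from 5.25 to 747.8 and FANCF has none in the band.

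Probe sets of the same gene often disagreed. In 21 of the 37 genes every probe set was above background, in 12 some were and some were not, and in 4 none was. ATM had means of 747.8, 487.8 and 444.9 on the probe sets called and 73.4, 51.6 and 5.25 on those that were not (n = 3 arrays). For ATR, means of 1698 and 803.3 stood beside 34.3. For CHEK1, 3 probe sets lay between 813.5 and 1992 and the fourth at 111.7. Of the 26 probe sets not above background, 17 were below the threshold on every array, 6 above it on 1 array and 3 on 2 arrays. Which transcript region each probe set reads was not analysed here.

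Above background the arrays were close. The median SD over the 3 arrays was 0.14 on the log2 scale for the 61 listed probe sets called, and 0.14 for all 19439 called on the array. For the 26 listed probe sets not called it was 0.79, so a signal below the threshold was measured far less precisely. Among the called probe sets the largest coefficient of variation was 25.9% for a probe set of FAN1, with 152.0 and 174.9 in the 48 h cultures and 247.0 in the 24 h culture.

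The promoters of many genes used in replication and repair are known to hold sites for E2F factors, which switch on genes at the start of S phase. The window from 250 bases before to 50 after the start was searched on both strands for TTTCCCGC, TTTCGCGC, TTTGCCGC and TTTGGCGC, whose matches can overlap. A match was found in 6 of the 36 listed genes with a RefSeq promoter window (16.7%, 95% Wilson interval 7.87% to 31.9%, counting error only) and in 3.99% of 27305 genes of the RefSeq table (GRCh38.p14). The searched words hold CpG dinucleotides, and the windows of the listed genes held a median of 26.5 CpG against 16.0 for all genes, taking the highest window of each gene. Its part in the difference between these shares was not tested. The genes were DMC1, TOPBP1, FANCC, XRCC2, FANCA and FANCD2. In the bases before the start alone, 2 genes kept a complete match (5.56%, against 3.40% of all genes), so in the other 4 the match overlapped or followed the start.

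The windows of the 4 measured genes with a match are shown because they set DMC1 beside genes known from dividing somatic cells. Each is printed 5′ to 3′ on the strand of the gene, from 250 bases before the start through 30 bases from the start on, with the matched bases in capitals. All are in GRCh38.p14 on the minus strand. DMC1 lies at chr22:38570154-38570433, TOPBP1 at chr3:133661912-133662191, FANCC at chr9:95317680-95317959 and XRCC2 at chr7:152676112-152676391.
DMC1: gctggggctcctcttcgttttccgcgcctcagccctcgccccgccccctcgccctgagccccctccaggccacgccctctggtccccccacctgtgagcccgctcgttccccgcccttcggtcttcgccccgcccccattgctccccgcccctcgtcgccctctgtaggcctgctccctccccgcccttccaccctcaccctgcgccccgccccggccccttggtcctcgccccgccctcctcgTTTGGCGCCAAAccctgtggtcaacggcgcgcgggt
TOPBP1: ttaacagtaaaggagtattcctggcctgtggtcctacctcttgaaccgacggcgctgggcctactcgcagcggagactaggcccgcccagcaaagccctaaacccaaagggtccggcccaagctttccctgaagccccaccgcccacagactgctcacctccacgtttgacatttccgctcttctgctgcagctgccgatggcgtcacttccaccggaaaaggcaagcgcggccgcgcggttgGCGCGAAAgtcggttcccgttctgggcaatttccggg
FANCC: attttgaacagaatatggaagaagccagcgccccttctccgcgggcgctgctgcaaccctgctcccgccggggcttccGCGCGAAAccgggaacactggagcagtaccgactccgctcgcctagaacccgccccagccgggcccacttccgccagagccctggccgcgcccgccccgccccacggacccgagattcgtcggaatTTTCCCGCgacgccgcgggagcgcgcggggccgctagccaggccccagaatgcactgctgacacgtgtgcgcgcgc
XRCC2: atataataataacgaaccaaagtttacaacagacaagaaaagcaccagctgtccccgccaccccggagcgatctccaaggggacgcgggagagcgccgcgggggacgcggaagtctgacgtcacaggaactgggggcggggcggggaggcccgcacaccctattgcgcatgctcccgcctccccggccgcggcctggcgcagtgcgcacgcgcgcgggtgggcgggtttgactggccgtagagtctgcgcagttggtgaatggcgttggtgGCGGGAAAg

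In DMC1 a match on each strand overlapped in a run of bases that reads the same on both strands and begins at position -6 from the start. The match in TOPBP1 began at position -7 and that in XRCC2 at 21. FANCC had matches that began at positions -172 and -46 in 1 of its 2 windows. These windows held 23 to 37 CpG dinucleotides. A match describes the sequence only, binding was not measured, and no signal was compared between genes with and without one.

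Between the harvest times, 64 listed probe sets of 36 genes were bright enough to be tested (limma on log2(signal + 21.2), with the mean-variance trend, 48 h minus 24 h). None was called at an adjusted p under 0.05, against 0.36% of all 21082 probe sets tested (76, of which 18 were higher and 58 lower at 48 h, 0.0854% and 0.275%). At an unadjusted p under 0.05 there were 4 listed probe sets (6.25%), against 9.8% of all tested. All 4 were higher at 48 h, where the share of all tested was 4.48%, and none was lower, against 5.32%. The fit has 1 array at 24 h, so its spread comes from the pair of 48 h arrays and from sharing across probe sets. That pair was seeded differently (375000 and 750000 cells), so its spread holds any effect of seeding besides that of repeated culture. The p-values measure only the spread between these samples. An exact permutation test over these arrays has a smallest possible p of 0.333.

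The largest positive differences at 48 h among the listed probe sets were those of TP53BP1, ATM, BARD1 and BLM. A probe set of TP53BP1 gave 233.1 and 259.0 in the 48 h cultures and 156.4 in the 24 h culture. It was 0.59 higher at 48 h on the log2 scale (SE 0.35, adjusted p = 0.63 in limma). The brightest probe set of TP53BP1 had -0.16 and another -0.30, with both 48 h arrays below the 24 h array in each. The ATM probe set given above was higher by 0.41 (log2, SE 0.18, adjusted p = 0.477 in limma). Another of ATM gave 426.0 and 537.0 in the 48 h cultures and 371.7 in the 24 h culture, higher by 0.35 (log2, SE 0.25, adjusted p = 0.712 in limma). That value was 0.51 without the low-seeded and 0.19 without the high-seeded 48 h array. The brightest probe sets of BARD1 and BLM were higher by 0.38 (SE 0.12) and 0.35 (SE 0.11) on the log2 scale, both with an adjusted p of 0.236 in limma, the smallest p-values of the listed probe sets. Both 48 h arrays lay above the 24 h array in each probe set named here as higher. They were picked for the size of this difference, so that order adds little. It was found in 43.8% of the listed probe sets tested and in 35.6% of all tested. The opposite order, both 48 h arrays below, was found in 25% and 35.2%.

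The largest negative differences were on other probe sets of FAN1, NBN, BARD1 and CHEK1, and on SLX4. The FAN1 probe set with the wide spread had a 48 h minus 24 h value of -0.54 (log2, SE 0.37, adjusted p = 0.689 in limma) and the brighter one of SLX4 -0.42 (SE 0.45, adjusted p = 0.833). The SLX4 value rests on the low-seeded 48 h array, where the signal was below the threshold, and was -0.08 without that array and -0.76 without the high-seeded one. A probe set of NBN gave 709.9 and 590.1 in the 48 h cultures and 861.4 in the 24 h culture (-0.40 on the log2 scale, adjusted p = 0.518 in limma). A probe set of BARD1 gave 841.7 and 876.9 in the 48 h cultures and 1094 in the 24 h culture (-0.34 on the log2 scale, adjusted p = 0.511 in limma), and one of CHEK1 gave 749.6 and 752.1 in the 48 h cultures and 938.8 in the 24 h culture (-0.31 on the log2 scale, adjusted p = 0.592 in limma). None of these passed the test.

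**Figure D4:**
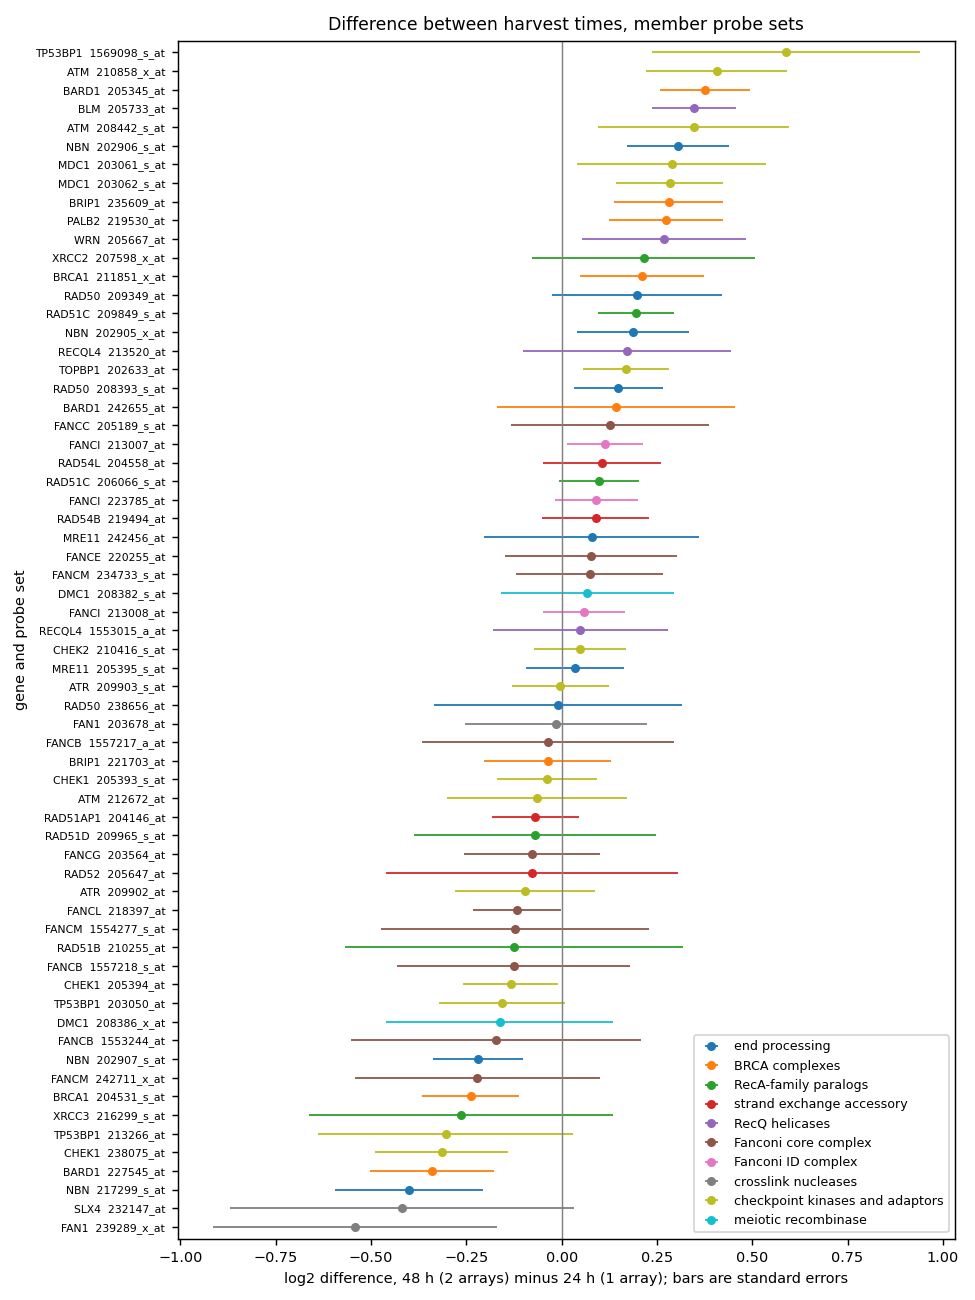
Log2 difference (horizontal axis, 48 h minus 24 h, 2 arrays against 1) of the 64 listed probe sets tested, ordered by size and colored by role. Bars are standard errors from limma; the values run from -0.54 for FAN1 to 0.59 for TP53BP1, and probe sets of BARD1 and NBN stand on both sides of 0.

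Probe sets of the same gene pointed both ways in 9 of the 18 genes with more than 1 tested. TP53BP1 ran from -0.30 to 0.59 on the log2 scale and BARD1 from -0.34 to 0.38. NBN ran from -0.40 to 0.31 and BRCA1 from -0.24 to 0.21. In BRCA1 the brighter probe set was lower in both 48 h cultures, while the other gave 970.1 and 981.7 there and 840.9 in the 24 h culture. In MDC1 both probe sets were higher at 48 h, by 0.28 and 0.29. Because of such disagreement, no direction was given to a gene from 1 probe set.

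As a list, the tested probe sets had a median log2 difference of 0.05 (48 h minus 24 h), against -0.00417 for all probe sets tested. With the arrays scaled to equal medians it was -0.00287, against -0.06 for all, and without the low-seeded 48 h array it was 0.0776. Both 48 h arrays were above the 24 h array in 28 of the 64 (43.8%, against 35.6% of all tested) and both below it in 16 (25%, against 35.2%). By role the medians above 0.05 were 0.22 for the RecQ helicases (4 probe sets), 0.18 for the BRCA complexes (8), 0.09 for FANCI (3) and 0.08 for end processing (9). The crosslink nucleases had the median farthest from 0, at -0.42 over 3 probe sets, and the Fanconi core complex had -0.10 (10). The median of the crosslink nucleases is the value of the SLX4 probe set itself, which was not above background. That value was -0.08 without the low-seeded 48 h array, and the brightest FAN1 probe set had -0.01. The other roles lay near 0, with 0.01 for the RecA-family paralogs (6), 0.01 for the strand exchange genes (4), -0.00354 for the checkpoint genes (15) and -0.05 for DMC1 (2). The S phase genes had a median of 0.07 over 41 probe sets and the G2 and M phase genes 0.03 over 44, and none of either list was called. The listed probe sets above background differed by a median of 0.15 on the log2 scale between the 48 h cultures, and by 0.19 for the low-seeded and 0.14 for the high-seeded 48 h culture against the 24 h culture.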

How the data were processed

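The authors measured total RNA of 3 cultures, each on 1 U133 Plus 2.0 array. The deposited values are MAS5 signals, an intensity on a linear scale, made by the authors with GCOS 1.0 as the submitters' processing notes give it. The mean after trimming 2% at each end was 500.1 on every array, a common scaling. Independence of the cultures is not stated in the labels. Probe sets were named through the platform annotation (41097 listed for 1 gene, 1801 for several, 11777 for none), and 0 symbols changed when updated by gene ID to GRCh38.p14.

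Harvest times were compared with limma 3.58.1 in R 4.3.3 (lmFit, eBayes with trend) on log2(signal + 21.2), where 21.2 is the median of the reference signals. A total of 21082 probe sets entered, those with a mean log2 value above the mean of the thresholds. The added value shrinks the differences of dim probe sets. P-values were adjusted by the Benjamini-Hochberg method over all of them. On simulated arrays of this comparison (20133 probe sets tested), log2 changes of 1 were called in 81% of cases and changes of 2 in 100%, and there were 10 false calls. The simulation assumes that the 24 h array varies like the 48 h pair. Its spread depended on signal level alone. The changed probe sets were drawn only from those with a mean more than 1 log2 unit above the threshold. The rates count those that passed the filter, 100 at a change of 1 and 92 at a change of 2. Recovery of probe sets closer to the threshold was not measured, nor was that of changes smaller than 1. The listed probe sets differed by -0.54 to 0.59 on the log2 scale, so recovery at their sizes is not known.

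The genes, lists, threshold and tests were chosen with earlier results of these data known. All listed genes were named by their brightest probe set, and in the comparison of harvest times the 5 largest increases and the 5 largest decreases, and for other lists the genes on the smaller side of the threshold. Alternatives were the 90th and 99th percentile, receptors alone as reference, 2 of 3 arrays, leaving out probe sets that can share sequence, including those of several genes, quantile normalization, equal medians, other added values, no filter, no trend and each array left out. Protein sequences were not used here.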

Additional observations from a re-analysis of the deposited data

How the results depend on the processing

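With the 99th percentile as threshold, 21 of the 37 genes (28.5% of all genes) and 32 of the 87 probe sets were above background. The share of all probe sets at this threshold was not computed. DMC1, ATM and RAD52 were among the 12 genes lost. Without probe sets that can share sequence, 30 genes could be measured and 23 were called (41.6% of all genes), and 31 of the other pathway genes. The 31 listed probe sets called were of the kind _at, where 62% of those listed were called. Of all _at probe sets listed for 1 gene it was 35.3%. This setting leaves out every probe set of DMC1, BRCA1, CHEK2, MDC1, RAD51C, XRCC2 and XRCC3. The genes that lost their call were BRCA1, CHEK2, DMC1, FANCC, FANCM, MDC1, NBN, RAD51C, RAD51D and XRCC2. With the 90th percentile or 2 of 3 arrays (53% and 52.4% of all genes), 36 genes were called, all but FANCF, and 2 meiotic genes (MND1 and REC8). Including probe sets of several genes gave 2 meiotic genes, MND1 and MSH5. With each array left out, the listed genes called ran from 33 to 35, against 49.6% to 50.5% of all genes. The meiotic genes called ran from 1 to 2. Between the harvest times 76 probe sets of the whole array were called, against 6 with equal medians (2 higher and 4 lower at 48 h) and 0 without the trend in limma (1379 at an unadjusted p under 0.05), and the cause was not tested. None of the listed probe sets was called in any of these settings. At an unadjusted p under 0.05 in limma there were 0 to 8. Without the filter it was 8 of 87 listed, against 3193 of all 54675 tested. With equal medians it was 0 of 64, against 803 of 21082. Each of the 10 named log2 differences kept its sign in every alternative run. The sizes moved, from -0.76 to -0.08 for SLX4, from 0.19 to 0.51 for the second ATM probe set and from 0.39 to 0.66 for TP53BP1. Leaving out a 48 h array leaves 1 against 1 and no residual degrees of freedom, so it gave values and no test. The share of promoters with a match was 5.56% in the shorter window, which removes matches on or after the start. No paired analysis was possible because there was 1 culture at 24 h and the labels number no replicates. On the log2 scale signals below the threshold differ between arrays far more than those above it, which limits what can be said of FANCF and of the dim probe sets.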

Other observations

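The 2 probe sets listed for both RAD54B and FSBP were above background on all 3 arrays. The first gave 223.4 and 284.4 in the 48 h cultures and 231.3 in the 24 h culture, and the other 236.7 and 145.3 in the 48 h cultures and 137.4 in the 24 h culture. These signals cannot be divided between the genes and entered no count above. Of the end joining genes not above background, POLL gave 231.8 and 65.6 in the 48 h cultures and 115.6 in the 24 h culture, and exceeded the threshold on the low-seeded 48 h array alone. POLM gave 113.5 and 90.8 in the 48 h cultures and 100.9 in the 24 h culture, and APLF 83.6 and 66.8 in the 48 h cultures and 23.9 in the 24 h culture, below the threshold on every array.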
